A study of Mus musculus with 8 samples.

Results

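The 10 genes described here encode enzymes that add nucleotides to the 3' ends of RNA. They are the FAM46 genes Fam46a, Fam46b and Fam46c, the noncanonical poly(A) polymerase genes Papd4, Papd5 and Papd7, the uridyl transferase genes Zcchc6 and Zcchc11, the nuclear poly(A) polymerase gene Papola and the mitochondrial poly(A) polymerase gene Mtpap. The set was chosen by symbol after the authors' log2 fold changes between dTAG-13 and untreated cells had been seen, so nothing about the set is a test. The genes were found by row name, and all 10 were present among the 17597 genes of a table of 18694 features. The table uses older symbols. The newer ones are Tent5a, Tent5b and Tent5c for the FAM46 genes, Tent2 for Papd4, Tent4b for Papd5, Tent4a for Papd7, Tut7 for Zcchc6 and Tut4 for Zcchc11.

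The RNA came from mouse embryonic stem cells (mES cells, labelled total RNA) of a Cast x 129S background whose METTL3 carries the FKBP12F36V degron tag. METTL3 is the enzyme that places N6-methyladenosine (m6A) on mRNA, and dTAG-13 is a small molecule that sends the tagged protein to destruction. The 8 libraries formed 2 groups of 4, untreated cells and cells given dTAG-13 for 26 h, each with clones C3 and H5 and 2 replicates per clone. All carry a TetOn promoter in place of the Xist promoter on 1 allele. That allele is 129S in the labels and Cast in the study's description of these clones. The study's methods for these libraries name dTAG-13 and do not mention doxycycline. The cells were grown on mitomycin-inactivated fibroblast feeders. Both groups rest on the same 2 clones. The values used are 1 mean per gene over the libraries, computed by the authors and called the mean count here. It carries no error, no number of libraries and no group, so levels are described across genes and the groups are not compared. The authors' own fold changes and p-values were not used, and differences between dTAG-13 and untreated cells are not analysed here.

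Most mRNAs receive a poly(A) tail in the nucleus from PAPOLA, the canonical polymerase, directly after cleavage of the transcript. Noncanonical enzymes act later. They can lengthen a tail again in the cytoplasm, add a few adenosines that hand a nuclear RNA to the exosome, or add uridines that mark an RNA with a short tail for decay. METTL3 methylates adenosine most often within the letters GGACT of its target RNA (GGACU in the RNA itself), and m6A is concentrated in long exons and near stop codons.

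The sequences below are from Fam46b, whose transcript held the most GGACT matches per kb of the 10. The 7 windows are the GENCODE transcript sequence around every match in Fam46b, on chromosome 4 of GRCm38 and on the plus strand, with the match in capitals and T written for U. The first 6 lie in the coding sequence and the last in the 3' UTR. A match is a string of letters and not a measured methylation site.
chr4:133486101-133486125: ggaagaacacGGACTgcgtgtacac
chr4:133486187-133486211: acaaggacctGGACTtggtgttcca
chr4:133486265-133486289: cttgcctgctGGACTtcctgccagc
chr4:133486424-133486448: tcaagttcgtGGACTctgtgagacg
chr4:133486478-133486502: aaatcatcttGGACTcgctgctcct
chr4:133486565-133486589: gcctctatggGGACTtcgctgaggc
chr4:133487824-133487848: cttggtaataGGACTctcacttatc

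Papola was by far the most abundant of the 10 genes, and Fam46c and Fam46a were the least. The mean counts of the 10 genes added up to 13296.5 of 14573411 over all genes, or 0.0912%, and Papola alone held 58.4% of that sum. All 10 reached a mean count of 10, and 8 reached 100. The median gene had 170.4, or 372.6 among the genes that reached 10. Levels of different genes were compared per kb of merged exons, that is the length covered by all annotated exons of a gene. These exons are those of GENCODE, while the study took its gene annotation from the UCSC genome browser. The exons that were counted can therefore differ from those used for length, and the effect on each level was not tested. On that scale 8 of the 10 genes lay above the median gene, which had 39.9 counts per kb. The highest level was 224 times the lowest. No spread over libraries was available, so it cannot be said which neighbours in this order differ beyond replicate error.

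**Figure D1:**
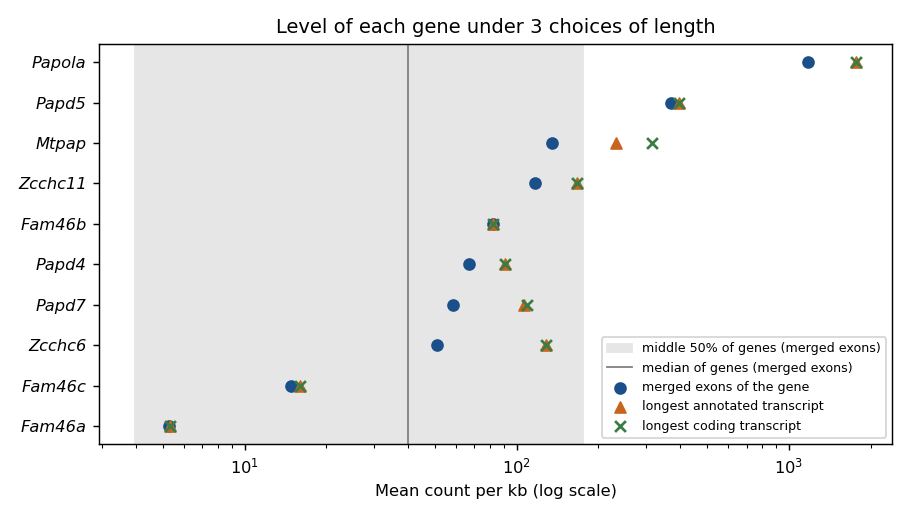
Mean count per kb (log scale) of each gene, with 3 choices of length: merged exons (circles), longest annotated transcript (triangles) and longest coding transcript (crosses). The line and the grey band mark the median and the middle 50% of all genes with merged exons. Papola lies at 1178 counts per kb of merged exons and Fam46a at 5.26, and the circles and crosses of Zcchc6 lie apart.

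Papola had a mean count of 7772, which placed it at rank 248 of all genes. Its level was 1178 counts per kb, at the 96.2nd percentile of 17352 genes with a length, and 3.19 times that of the next member. The gene lies on chromosome 12 (105784694 to 105838944, plus strand, GRCm38, as for all positions here). It has 20 annotated transcripts, and its level per kb of the longest coding transcript was higher, at 1774.

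Of the enzymes that adenylate nuclear RNA, Papd5 held the second place per kb and Papd7 the seventh. PAPD5 works with the zinc knuckle protein ZCCHC7 and the helicase MTREX in a TRAMP-like complex, and PAPD5 and PAPD7 can also place guanosines into poly(A) tails, which slows deadenylation. Papd5 (chromosome 8, 88199213 to 88259722, plus strand) had a mean count of 1821 and 369 counts per kb, at the 86.4th percentile. Papd7 (chromosome 13, 69497959 to 69534617, minus strand) had a mean count of 520.2 and 58.3 counts per kb, at the 55.7th percentile. Papd5 was thus 6.32 times as abundant as its paralog per kb of merged exons. The gap was smaller per kb of the longest coding transcript, where the values were 394 and 109.5. Papd7 shares 165 bases of exon with Nsun2, an RNA methyltransferase gene on the other strand with a mean count of 7888. Reads from the shared stretch can be told apart only by strand, and whether strand was used in the counting is not certain. The stretch is 1.85% of the merged exons of Papd7.

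The uridyl transferases were both above the median gene. ZCCHC11 and ZCCHC6 add uridines to mRNAs with short tails and, with LIN28, to let-7 precursors. Zcchc11 (chromosome 4, 108459426 to 108559421, plus strand) had a mean count of 1013 and 117 counts per kb, at the 67.8th percentile. Zcchc6 (chromosome 13, 59771561 to 59823147, minus strand) had a mean count of 749.8 and 50.9 counts per kb, at the 53.6th percentile. The gap between these paralogs depends on the length used. Zcchc11 was 2.29 times as high as Zcchc6 per kb of merged exons. Per kb of the longest coding transcript the values were 167 and 128. The merged exons of Zcchc6 cover 14732 bases, against 5869 for its longest coding transcript. The antisense gene Etohd2, with a mean count of 17.7, covers 1299 of these exon bases on the other strand. Gm49354, a coding gene on the same strand, shares 228 exon bases with Zcchc6. Strand cannot tell reads of that stretch apart, and no mean count was found under the symbol Gm49354. Together, these genes held 1369 of the 5789 windows of 81 bases, the read length, in the longest coding transcript of Zcchc6 (23.6%, the largest share of the 10 genes), so its level is uncertain.

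Papd4, which encodes the cytoplasmic poly(A) polymerase GLD2 that is recruited through CPEB proteins, was close to the middle of all genes. It lies on chromosome 13 (93146282 to 93192385, minus strand) and had a mean count of 280.0, which is 67.1 counts per kb and the 58.0th percentile. By mean count it was at the 56.7th percentile of all genes. Among genes that reached a mean count of 10 it was lower, at the 43.9th, and among those that reached 100 at the 23.0th. Of 3001 windows of 81 bases in its longest coding transcript, 615 (20.5%) were also found in Gm15975, a processed pseudogene on chromosome 5. Only uniquely placed read pairs were kept, and a pair with 1 mate outside such a window can still be placed. Its level is therefore uncertain, and how many pairs were lost was not tested.

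The FAM46 genes spanned the widest range. The family encodes cytoplasmic poly(A) polymerases of animals: FAM46C is known as a tumour suppressor in myeloma and for lengthening the tails of mRNAs of secreted proteins, and FAM46A for a role in bone. FAM46B has been described as a poly(A) polymerase of human embryonic stem cells. Fam46b (chromosome 4, 133480132 to 133487938, plus strand) had a mean count of 187.0 and 81.8 counts per kb, at the 61.4th percentile. Fam46c (chromosome 3, 100451628 to 100489324, minus strand) had a mean count of 90.4 and 14.8 counts per kb, at the 38.02nd percentile. Fam46a (chromosome 9, 85320439 to 85327348, minus strand) had a mean count of 30.02 and 5.26 counts per kb, at the 27.7th percentile. Fam46b was 5.52 times as high per kb as Fam46c and 15.5 times as high as Fam46a. That order held with all 3 choices of length and for the mean count itself. None of their longest coding transcripts had a window of 81 bases in common with another gene.

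Mtpap, which encodes the polymerase that adenylates mitochondrial mRNAs, was the third of the 10 genes per kb. It had a mean count of 834 and 135 counts per kb, at the 70.2nd percentile. Its level rose to 315 per kb of the longest coding transcript, since the merged exons cover 6198 bases and that transcript 2651. An antisense gene at the same locus covers 1147 bases, or 18.5%, of these merged exons, and a processed transcript on the same strand covers 224 bases, or 3.61%. They held 4.20% and 3.70% of the windows of 81 bases in the longest coding transcript. No mean count was found under the symbol of either. Strand, where used, separates reads of the antisense gene but not those of the processed transcript, so the level of Mtpap is uncertain.

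The other genes that act on RNA tails were read from lists, and the cells' identity from markers. Among the other nucleotidyltransferases, Trnt1, which adds CCA to tRNAs, had 474 counts per kb and Tut1, which uridylates U6 snRNA, had 415. The nuclear polymerase gene Papolg had 125 counts per kb, against 1178 for Papola. The germline genes Papolb and Fam46d had 15.3 and 3.81 counts per kb. Fam46d, the remaining FAM46 gene, was thus below Fam46a on this scale.

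Among partners of these enzymes, Lin28a was the highest at 1622 counts per kb, with Lin28b at 52.8. Dis3l2, which encodes the exonuclease that degrades uridylated RNA, had 34.7 counts per kb. Of the TRAMP-like complex, Skiv2l2, the older symbol of Mtrex, had 493 counts per kb and Zcchc7 had 60.5. The level of Zcchc7 was close to that of Papd7 and below that of Papd5. The CPEB genes ranged from 7.11 counts per kb for Cpeb3 to 64.5 for Cpeb4, with Cpeb1 at 29.6 and Cpeb2 at 13.8. All 4 were below Papd4 on this scale.

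The genes on the deadenylase list had a narrower range of levels than the 10 transferase genes. The list holds genes linked to tail removal, and whether each product removes tails itself was not examined. The 10 genes of the deadenylase list all lay above the median gene. Their levels ranged from 55.3 counts per kb for Cnot6l to 612 for Cnot8, with a median of 171 against 74.4 for the 10 transferase genes. Both medians are per kb of merged exons. The lists were not computed with the other lengths, so how far this gap depends on the length was not tested. Toe1 had 413, Parn 192, Cnot7 183, Cnot6 183, Pde12 160.1, Ccrn4l 78.9, Pan2 77.3 and Pan3 75.1 counts per kb. The poly(A)-binding protein genes were more abundant still, at 1664 counts per kb for Pabpc1, 1079 for Pabpc4 and 919 for Pabpn1, while Pabpc1l, known from oocytes, had 0.556. The mitochondrial partners Lrpprc, Slirp, Pnpt1 and Supv3l1 ranged from 492 to 667 counts per kb, above Mtpap.

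**Figure D2:**
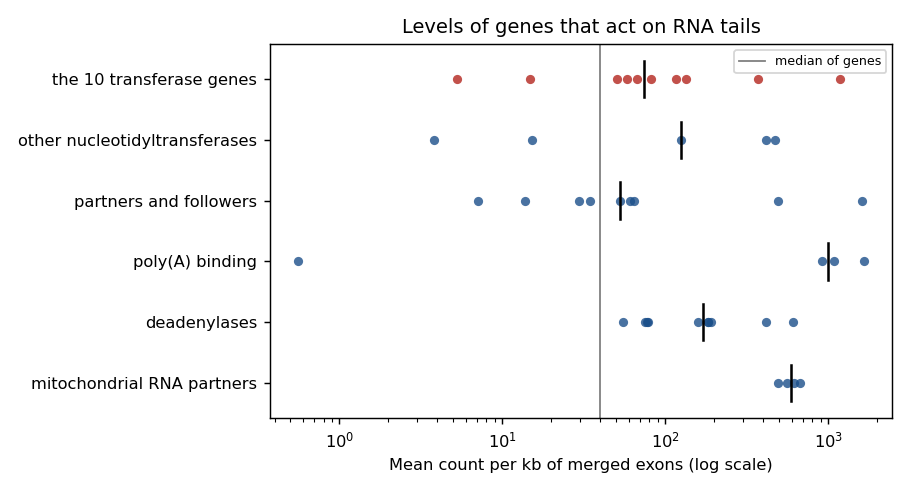
Mean count per kb of merged exons (log scale) for the 10 transferase genes (red) and for lists of genes that act on RNA tails (blue), 1 point per gene, with list medians as black bars and the median of all genes as a line. The 10 genes of the deadenylase list span 55.3 to 612 counts per kb, and the transferase genes 5.26 to 1178.

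The labelled cell type was checked against markers. All 10 embryonic stem cell markers lay above the median gene, from 464 counts per kb for Klf4 to 16142 for Dppa5a, with Pou5f1 at 5309. Of the 10 fibroblast markers 0 lay above it, and they had 67.7 counts per kb in all. The highest were Thy1 at 38.7 and Fbln2 at 19.9, and Col1a1 had 3.02, Twist2 0.133 and Postn 0.0882. The 6 primitive endoderm markers ranged from 1.24 to 10.2 and the 6 markers of cells like the early cleavage embryo from 3.96 to 11.5. Fam46a, at 5.26, lay within the ranges of these last lists, and Fam46c, at 14.8, lay above them. Both genes lay within the range of the fibroblast markers, of which only Thy1 and Fbln2 were above either gene. Whether feeder or other cells contribute to either gene was not tested. In bulk RNA few cells with much of a transcript and many cells with little cannot be told apart.

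The transcripts of the 10 genes differed in the letters METTL3 uses. Over the 13022 genes that reached a mean count of 10 and had a coding transcript, the median density of GGAC was 4.16 matches per kb of the longest coding transcript. Of the 10 genes 8 lay below that median, with Fam46a close to it at 4.07, and Fam46b and Zcchc6 lay above it. With the longer GGACT the same count was even, with 5 genes above the median density and 5 below. Fam46b had 21 GGAC matches in 2287 bases, or 9.18 per kb, at the 98.5th percentile. Zcchc6 had 37 matches in 5869 bases, or 6.30 per kb, at the 85.5th percentile. At the low end, Papd4 had 1.95 GGAC matches per kb (6.82nd percentile) and Papola 2.51 (14.6th percentile). The other 6 genes had between 2.64 and 4.07 per kb.

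GC content moved with this density. Across the same 13022 genes, Spearman's rho between GC content and GGAC density was 0.642, a description over genes, which are not independent and whose GGAC count is itself part of the GC content. For GGACT density rho was lower, at 0.256. Fam46b had a GC content of 60.2% (95.4th percentile), the highest of the 10, and Papd4 had the lowest at 40.2% (5.34th percentile). Papd7 had 56.4% GC but 3.58 GGAC matches per kb, and Zcchc6 had 45.8% GC with 6.30. The part of base composition in the density of Fam46b was not tested.

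**Figure D3:**
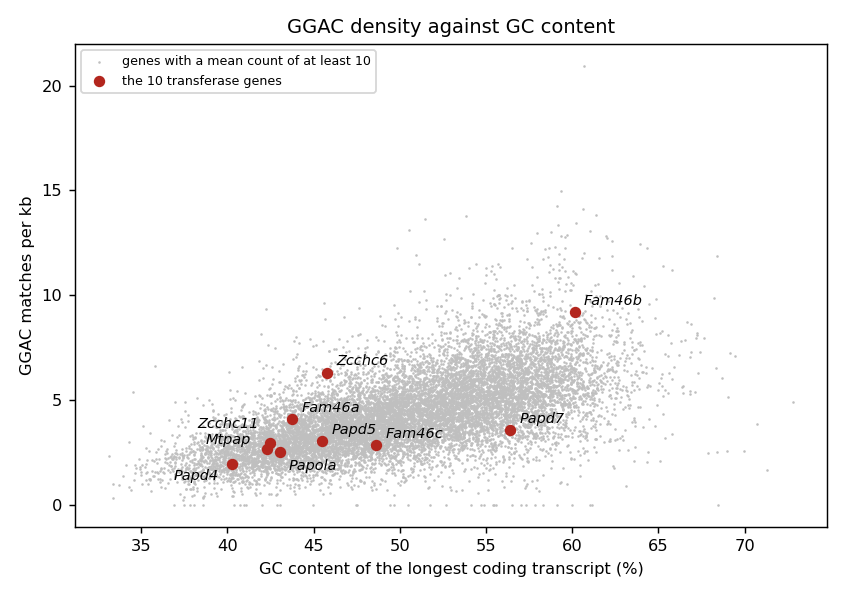
GGAC matches per kb against GC content (%) of the longest coding transcript, for 13022 genes that reached a mean count of 10 (grey) and the 10 transferase genes (red). Fam46b lies at 60.2% GC and 9.18 matches per kb, and Zcchc6 at 45.8% and 6.30.

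With the fifth letter added, 92.7% of the 13022 genes had at least 1 GGACT match, and so did all 10 members. The members held 47 GGACT matches, of which 30 lay in coding sequence, 15 in 3' UTRs and 2 in 5' UTRs. Fam46b had 7 matches, or 3.06 per kb (98.1st percentile, median of genes 1.05), 6 of them in the coding sequence. They fell between 990 and 526 bases upstream of the stop codon, in the stretch shown by the windows above. Zcchc6 had 10 matches, 9 of them coding, and Zcchc11 had 5, all coding. In Fam46a the balance was the other way, with 5 of 7 matches in the 3' UTR. Fam46c had 3 coding and 3 in the 3' UTR. Papd4 had a single match, in its 3' UTR. The parts also differ in length: the 3' UTR made up 71.1% of the transcript in Fam46a and 74.6% in Fam46c. It made up 36.5% in Fam46b, 22.9% in Zcchc6 and 10.4% in Zcchc11. The share of matches in each part over all genes was not taken, so these counts only describe the 10 genes.

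**Figure D4:**
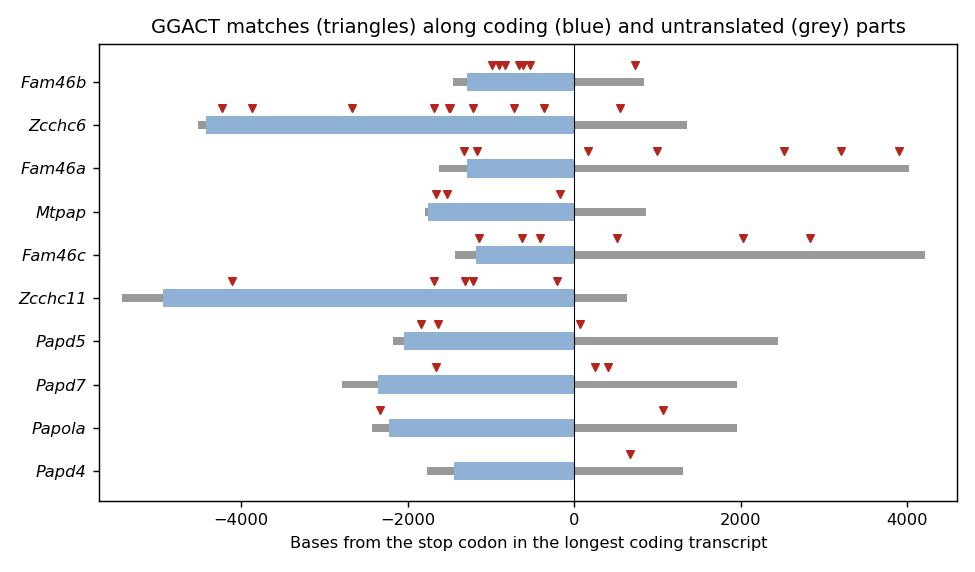
The longest coding transcript of each gene, to scale, in bases from the stop codon, with coding sequence in blue, untranslated parts in grey and GGACT matches as triangles. The genes are ordered by GGACT matches per kb: Fam46b has 6 matches within its coding sequence and Papd4 has 1 match in all.

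Because m6A is concentrated around stop codons, the GGACT match nearest to the stop codon is shown for other members, each on GRCm38 and on the gene's own strand, with the match in capitals. A match within 200 bases of the stop codon was present in 3 of the 10 genes, Papd5, Fam46a and Mtpap. The same share over all genes was not taken, so this count only describes the 10 genes.
Papd5, chr8:88257329-88257353, plus strand: agttgcacagGGACTcctgggacgg
Fam46a, chr9:85324279-85324303, minus strand: agtgcacggaGGACTtgctcctgat
Zcchc11, chr4:108557326-108557350, plus strand: acgctttcgaGGACTaaatcctcca
Papd7, chr13:69499652-69499676, minus strand: ggagtgtcagGGACTggatgtgcgg
Zcchc6, chr13:59784771-59784795, minus strand: acttcatgaaGGACTgtcccatgag
Fam46c, chr3:100472666-100472690, minus strand: tccttgtgcgGGACTtcaggcctgc
Papd4, chr13:93146906-93146930, minus strand: acttgtttatGGACTatttgaaagt
Papola, chr12:105837916-105837940, plus strand: atctctgcgaGGACTtttgtacact

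The Papd5 match lay 66 bases into the sequence after the start of its stop codon, and that of Fam46a 166 bases. The matches of Zcchc11, Zcchc6 and Fam46c were coding, 207, 361 and 415 bases upstream of the stop codon. Those of Papd7, Papd4 and Papola were in the 3' UTR, at 252, 673 and 1068 bases. For Papola this was the only match downstream of the start codon.

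The FAM46 genes had few exons. Fam46b and Fam46c had 2 exons in the longest coding transcript and Fam46a had 3, against 9 to 31 for the other 7 genes. The median was 9 over the 13022 genes that reached a mean count of 10 and had a coding transcript. Percentiles in this paragraph are over those genes. Their coding sequences were of similar length, with 1284 bases in Fam46b, 1176 in Fam46c and 1287 in Fam46a. The 3' UTRs were not: they had 835 bases in Fam46b, 4206 in Fam46c (93.0th percentile) and 4018 in Fam46a (92.0th percentile). The longest transcripts belonged to the uridyl transferases, with coding sequences of 4935 bases in Zcchc11 and 4425 in Zcchc6. These 2 genes also had the longest internal exons of the 10, at 869 and 1076 bases (92.2nd and 94.5th percentiles), against a median of 209. Zcchc11 had the shortest 3' UTR of the 10, at 630 bases.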

How the data were processed

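Per the study's methods, the authors removed rRNA reads with bowtie2, aligned the rest with STAR to a strain-masked mm10, kept unique alignments, removed duplicates with Picard, and ran TEtranscripts at default settings on genes and transposable elements. The deposited signal column is, by its name, a mean of size-factor-scaled read counts over all libraries. The 5 other columns hold the authors' own comparison (log2 fold change, its standard error, statistic, p-value and adjusted p) and were not used. The table names no library, so depth per library is unknown and no interval or test could be given. The 17597 gene rows summed to 14573411 counts. Whether the counting used strand is not certain, since TEtranscripts ignores strand by default and the deposited table carries the word reverse in its name. The labels' extraction text describes chromatin RNA, and the molecule label and the methods total RNA.

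Symbols were matched to GENCODE vM21 (GRCm38, the build of mm10): 16660 directly, 721 through an older symbol, 187 not at all and 29 to several records, and 17352 genes (98.6%) had a length after records claimed by more than 1 row were dropped. Merged exons, longest transcripts, motif matches (sense strand of the transcript, overlaps counted) and windows of 81 bases were computed with Python 3.11.15 and numpy 2.4.6 and tested on simulated sequences. GGAC includes every GGACT. Percentiles are the share of genes with a lower value. All members were named, and every gene of each list of genes that act on RNA tails. Members and lists were chosen with earlier results of these data known.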

Additional observations from a re-analysis of the deposited data

How the results depend on the processing

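With the longest annotated transcript as length, 6 of 10 levels per kb moved by more than 10%, a limit set because no spread is available, and 4 did not. The numbers were the same with the longest coding transcript. Both moved Fam46b from the fifth to the eighth place and Zcchc6 from the eighth to the fifth, since the merged exons of Zcchc6 are long, and 4 places changed in all. Ordered by the mean count without length, 6 places changed. With merged exons, with both other lengths and without length, 8 of the 10 genes were above the median of all genes, low ones included. Over genes and transposable elements together, the 10 genes held 0.0816% of the mean counts. Averaging GGAC density over all coding transcripts moved 4 of 10 values by more than 10%. That of Fam46a went from 4.07 to 4.23 per kb, on either side of the median of 4.16 for the longest coding transcripts. The median over genes was not taken for the averaged density. Among the 13590 genes that reached a mean count of 10, the percentile of mean counts was 12.1 for Fam46a and 36.7 for Fam46b, against 32.1 and 51.1 over all genes. Papd4, at the 43.9th percentile, also fell below the median of these genes, so the count above the median depends on the genes included. At a minimum of 100, 6 percentiles moved by more than 10%, 2 did not, and Fam46a and Fam46c had none. Papd7 was then below the median as well, at the 42.4th percentile. With GGACT in place of GGAC all 10 densities were lower by construction, and 5 of the 10 genes lay above the median density, against 2 with GGAC. No paired analysis was possible because the table gives 1 mean per gene and no value per library. For the same reason the planned tests between groups and the fits without single replicates were not run, nor was the identity between proteins, for which no protein table was used here. A mean count without error limits every order given here to a description.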
